A study of Mus musculus with 23 samples.

Results

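MicroRNAs of activated type 2 lymphocytes were compared with those of their resting counterparts across both lineages of type 2 immunity, the group 2 innate lymphoid cells (ILC2) and the CD4 T cells that become T helper 2 (Th2) cells. All 23 of the 23 small RNA libraries entered the comparison, 15 from 4 activated groups and 8 from 2 resting groups. The main effect is the mean of the 4 activated groups minus the mean of the 2 resting groups, with equal weight for each group and with the count table of a library as a block. Libraries are numbered 1 to 4 by their count table, and OVA-lung Th2 has none numbered 4. A change was called core where the main effect passed an adjusted p of 0.05 and the difference had the same sign in each of the 4 activated groups against the resting group of its lineage.

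The resting groups were lung ILC2 of untreated wild-type mice (n = 4), gated on CD45 and Thy1, without lineage markers or CD4, and on CD25 and ST2, and CD4 T cells of wild-type spleen and lymph nodes (n = 4), sorted as CD62L-high CD44-low CD25- CD69-. IL-33 ILC2 (n = 4) had the same sort from lungs of wild-type mice given 500 ng of the alarmin IL-33 into the airway through the mouth on 3 days, and cultured ILC2 (n = 4) were lung ILC2 of wild-type mice kept for 10 days with 10 ng/ml of IL-33, TSLP and IL-7. OVA-lung Th2 (n = 3) were CD45+ CD11c- CD11b- CD4+ CD3+ 4get+ lung cells of mice with the Il4tm1LKy reporter allele, sensitized to ovalbumin (50 µg, with alum) over 3 weeks and then given 50 µg by aspiration on 3 days; the reporter marks cells that transcribe Il4. Cultured Th2 (n = 4) were wild-type spleen and lymph node CD4 T cells, taken with CD4 beads and stimulated for 5 days through CD3 and CD28 in 500 U/ml of IL-4, with anti-IFNg at 10 µg/ml. In T cells, activation in vivo therefore comes with another tissue, another genotype and a past immunization, and in both lineages activation in culture comes with its own time and medium. These factors and activation cannot be told apart here, and no label ties a library to an animal, so p-values measure the spread between these samples.

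MicroRNAs are short RNAs that guide Argonaute proteins to messenger RNAs, chiefly through the seed near their 5′ end, and lower the stability and translation of their targets. Lymphocytes that are activated and begin to divide are known to remodel their microRNA content, with induction of miR-21 and miR-155 and loss of miR-150 and miR-181a among the changes described in T cells. MicroRNAs that share a seed can share targets even where they come from different genes, and neighbouring microRNAs can be cut from 1 primary transcript, which is why seeds and neighbours are given below beside the changes.

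The mature sequences of the core microRNAs that carry most counts are shown first, 5′ to 3′, with the seed (bases 2 to 8) in capitals. Sequences are those of RefSeq on GRCm38.p6, where 20 of the 22 core microRNAs were matched. The first set rose with activation.
miR-21a-5p: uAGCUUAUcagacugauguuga
miR-21a-3p: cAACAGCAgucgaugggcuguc
miR-155-5p: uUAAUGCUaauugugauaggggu
miR-182-5p: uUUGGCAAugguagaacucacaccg
miR-183-5p: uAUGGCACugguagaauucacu
miR-132-3p: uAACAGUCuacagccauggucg
miR-301a-3p: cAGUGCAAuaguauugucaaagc
miR-296-3p: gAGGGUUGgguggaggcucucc
miR-7a-5p: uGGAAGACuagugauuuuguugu
miR-98-5p: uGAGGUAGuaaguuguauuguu
miR-22-3p: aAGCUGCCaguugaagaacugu
miR-17-5p: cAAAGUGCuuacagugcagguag

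The second set fell with activation.
miR-139-5p: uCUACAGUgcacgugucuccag
miR-181a-5p: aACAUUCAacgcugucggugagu
miR-101a-3p: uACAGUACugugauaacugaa

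The third set shares its seed with a core microRNA and is shown because none of its members was called in the same direction. let-7b, let-7c, let-7g and let-7f carry the seed of miR-98, miR-106b and miR-93 that of miR-17, miR-181b that of miR-181a, and miR-130b that of miR-301a.
let-7b-5p: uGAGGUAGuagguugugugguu
let-7c-5p: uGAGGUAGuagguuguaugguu
let-7g-5p: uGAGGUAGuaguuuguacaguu
let-7f-5p: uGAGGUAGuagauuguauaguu
miR-106b-5p: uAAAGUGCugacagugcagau
miR-93-5p: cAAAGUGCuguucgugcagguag
miR-181b-5p: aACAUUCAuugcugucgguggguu
miR-130b-3p: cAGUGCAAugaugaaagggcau

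The smallest library held 84911 counts and the largest 28371898 (median 832216), and 384 of 1256 microRNA entries had enough counts to be tested. The tables hold microRNAs only, so the proteins used in the sorts could not be checked. MicroRNAs known from other cells were present at low shares. The 4 entries of the endothelial list, 2 of them tested, summed to 0.0256 to 2.16% of counts in lung ILC2, 0.0432 to 0.407% after IL-33, 0.00379 to 0.0502% in cultured ILC2, 0 to 0.0317% in CD4 T cells, 0.00983 to 0.108% in OVA-lung Th2 and 0.000452 to 0.0338% in cultured Th2. The mesenchymal list ran from 0.459 to 1.17% in lung ILC2 and from 0.00134 to 0.0127% in CD4 T cells, against 0.0393 to 0.188% in IL-33 ILC2, 0.0111 to 0.124% in cultured ILC2, 0.00786 to 0.714% in OVA-lung Th2 and 0.000232 to 0.0224% in cultured Th2. None of the 28 tested marker microRNAs was called in the main effect by edgeR's quasi-likelihood test, 3 had an unadjusted p below 0.05 and DESeq2 called 2. In single groups 5 markers were called: miR-126a-3p (endothelial) in cultured ILC2 (-4.04), OVA-lung Th2 (5.74) and cultured Th2 (4.25), miR-451a (erythroid, 4.48) and miR-1a-3p (muscle, 7.95) in OVA-lung Th2, and miR-203-3p (-4.36) and miR-34c-5p (6.55), of the epithelial list, in cultured Th2. The erythroid list reached 1.91% of counts in lung ILC2, 0.443% in CD4 T cells and 0.969% in OVA-lung Th2. Their part in the results below was not tested.

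On average over the 4 groups 36 of the 384 microRNAs (9.38%) differed between activated and resting cells. Of these 22 were higher in activated cells (5.73%) and 14 lower (3.65%), and 96 of the 384 had an unadjusted p below 0.05. The core held 22 (5.73%), of which 16 rose (4.17%) and 6 fell (1.56%). The direction of a core change was the same within every count table for 20 of the 22. The median change of all 384 microRNAs was 0.29 log2 under TMM scaling, 0.19 under DESeq2 size factors and -0.32 under library totals, so that changes are best read against these medians. The share of rises among the calls turned with the scaling, from 22 higher and 14 lower under TMM to 24 and 18 under size factors and 11 and 38 under library totals. The core turned from 16 and 6 to 17 and 13, and to 10 and 26. In all 3 scalings 16 microRNAs were core, 10 higher and 6 lower. The calls within the 4 groups were few in IL-33 ILC2, with 2 (0.521%), and numbered 17 among cultured ILC2 (4.43%; 14 higher, 3.65%, and 3 lower, 0.781%), 24 for OVA-lung Th2 (6.25%; 11 higher, 2.86%, and 13 lower, 3.39%) and 51 for cultured Th2 (13.3%; 33 higher, 8.59%, and 18 lower, 4.69%). The groups of 1 lineage share their resting libraries, so these contrasts are not independent of each other. Without CD4 T cell library 1 or 2 the main effect had 21 and 22 calls and the core 14 and 13. OVA-lung Th2 calls moved from 24 to 15 and 11 without its libraries 2 and 3, and to 37, 38 and 41 without IL-33 ILC2 4, cultured ILC2 1 and cultured Th2 1. Cultured ILC2 had 5, 9 and 6 calls without lung ILC2 2, 3 and 4, and 10, 11 and 4 without its own libraries 2, 3 and 4. Cultured Th2 had 22, 24, 28 and 18 without CD4 T cell libraries 1 to 4, 26, 29 and 32 without its own libraries 1 to 3, 29 without lung ILC2 2 and 27 without cultured ILC2 2. In bulk libraries a change in the share of a cell type and a change in the RNA of each cell cannot be told apart.

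miR-21a-5p, which is known to be induced in activated lymphocytes and to act on Pdcd4, was the single microRNA called in the direction of its main effect in all 4 activated groups (0.26% of those tested). It held 1.69, 2.96, 4.80 and 10.7% of counts in the 4 lung ILC2 libraries and 1.88, 9.26, 25.04 and 45.6% in IL-33 ILC2. It held 5.56, 24.4, 40.0 and 62.2% in cultured ILC2. In CD4 T cells it held 2.54, 2.16, 4.77 and 9.26%, in OVA-lung Th2 49.0, 31.3 and 52.8%, and in cultured Th2 29.4, 36.4, 51.9 and 82.2%. In ILC2 the groups overlapped, since IL-33 libraries 1 and 2 and cultured library 1 sat below lung ILC2 library 4, whereas every activated T cell library lay above every CD4 T cell library. Against the resting library of its own lineage and count table it was higher in 15 of 15 pairs. The main effect was 3.65 ± 0.32 log2 (SE, adjusted p = 9.26e-11). By group it was 2.60 ± 0.47 for IL-33 (adjusted p = 0.000989) and 3.71 ± 0.48 for culture among ILC2, and 3.93 ± 0.50 for OVA-lung Th2 and 4.37 ± 0.49 for cultured Th2. Where 1 microRNA holds up to 82.2% of a library, the shares of the others sum to less, and TMM gave cultured Th2 library 4 the lowest factor, 0.20, and IL-33 ILC2 library 2 the highest, 2.66. Leaving miR-21a-5p out of the totals gave 36 calls in the main effect and a core of 21.

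**Figure D1:**
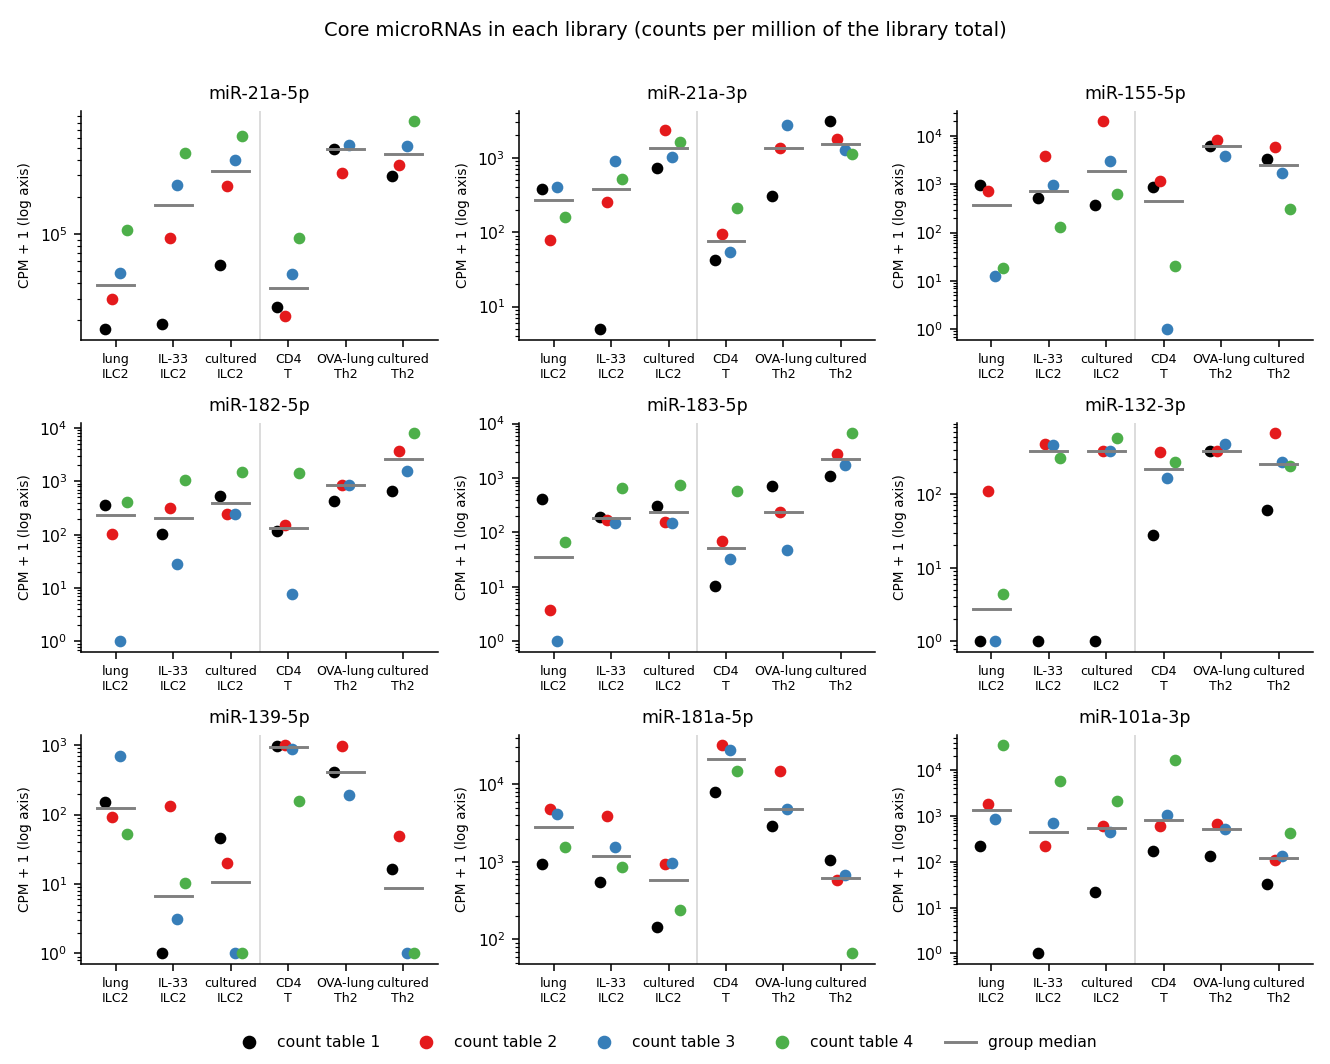
CPM plus 1 on a log axis for 9 core microRNAs in each of the 23 libraries, coloured by count table, with the group median as a grey line and the resting group of each lineage at the left of its panel side. miR-21a-5p holds 2.16 to 9.26% of counts in CD4 T cells and 29.4 to 82.2% in cultured Th2, and libraries numbered 4 often sit apart from the rest, as for miR-101a-3p.

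The passenger arm of the same hairpin, miR-21a-3p, rose too. It stood at 386, 77.9, 408.5 and 161 CPM (counts per 1000000 of the library total) in lung ILC2, at 3.97, 257, 906 and 514 in IL-33 ILC2 and at 726, 2340, 1040 and 1650 in cultured ILC2. In CD4 T cells it stood at 40.8, 94.8, 54 and 209 CPM, in OVA-lung Th2 at 308, 1340 and 2790, and in cultured Th2 at 3110, 1780, 1270 and 1130. Cultured ILC2, OVA-lung Th2 and cultured Th2 did not overlap with their resting group. IL-33 ILC2 did, and its library 1 held 2 counts. The main effect was 3.41 ± 0.66 log2 (adjusted p = 0.000592), with calls in cultured ILC2 (3.56 ± 0.996), OVA-lung Th2 (3.59 ± 1.05) and cultured Th2 (5.15 ± 1.06), and a difference of 1.32 ± 0.98 in IL-33 ILC2 that was not called. The call in cultured ILC2 was lost under size factors (2.80, adjusted p = 0.109) and library totals (2.42, adjusted p = 0.161). The arms start 38 bases apart, miR-21a-5p at chr11:86584120-86584141 and miR-21a-3p at chr11:86584082-86584103 on the minus strand of GRCm38.p6, in an exon and UTR of Vmp1 in the annotation of GENCODE vM21.

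miR-155-5p, cut from an exon of the lincRNA Mir155hg (chr16:84714143-84714165, plus strand) and known as an inducer of effector functions in lymphocytes, rose by 3.88 ± 0.91 log2 (adjusted p = 0.0105). Its CPM was 969, 711, 11.7 and 17.1 in lung ILC2, 514, 3830, 970 and 130 in IL-33 ILC2 and 366, 20200, 3100 and 614 in cultured ILC2. It was 880, 1160, 0 and 19.5 in CD4 T cells, 6130, 8300 and 3890 in OVA-lung Th2 and 3320, 6000, 1690 and 307 in cultured Th2. Resting libraries numbered 1 and 2 thus stood far above those numbered 3 and 4, and the groups overlapped except OVA-lung Th2, whose 3 libraries lay above all CD4 T cells. The changes were 2.82 ± 1.29, 5.00 ± 1.39, 3.79 ± 1.34 and 3.91 ± 1.31 log2 for the IL-33, cultured ILC2, OVA and cultured Th2 contrasts, and the second was called. Under size factors that call was lost (adjusted p = 0.0529) and those in OVA-lung Th2 (0.0268) and cultured Th2 (0.0202) were made, and under library totals no single group was called. Without OVA-lung Th2 library 1 the main effect lost its call (3.74, adjusted p = 0.0544).

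The cluster of miR-182, miR-96 and miR-183 on chromosome 6, known for control of Foxo transcription factors in activated lymphocytes, had 2 of its 3 guide arms called upward; miR-182-5p starts 3749 bases from miR-183-5p. miR-182-5p stood at 357, 104, 0 and 410 CPM in lung ILC2, 101.1, 312, 27.6 and 1060 in IL-33 ILC2 and 532, 242, 244 and 1490 in cultured ILC2. In T cells it went from 116, 147.6, 6.75 and 1420 in CD4 T cells to 432.5, 863 and 836 in OVA-lung Th2 and 663, 3650, 1560 and 7950 in cultured Th2. Library 4 was the highest in each of the 5 groups that have one, so groups overlapped as a whole, while the activated library was the higher in 14 of 15 pairs within a table and lineage. The main effect was 2.83 ± 0.59 log2 (adjusted p = 0.00168), and the change in cultured Th2 was called by itself (4.85 ± 0.94). Under size factors that in OVA-lung Th2 was called too (3.80, adjusted p = 0.011).

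miR-183-5p rose by 3.27 ± 0.68 log2 (adjusted p = 0.00185), from 408, 2.83, 0 and 64.9 CPM in lung ILC2 to 194, 167, 146.4 and 655 in IL-33 ILC2 and 311, 156, 147.5 and 737 in cultured ILC2. In T cells it went from 9.24, 69.8, 31.5 and 589 CPM to 721, 235 and 47.1 in OVA-lung Th2 and to 1080, 2720, 1740 and 6640 in cultured Th2. Every cultured Th2 library lay above every CD4 T cell library, and the other activated groups overlapped with their resting group. miR-96-5p, which lies between them, had a difference of 2.02 ± 0.99 log2 (adjusted p = 0.187) that was not called. Both called members of the cluster were higher in culture than in vivo among activated cells, by 1.85 ± 0.62 for miR-182-5p (adjusted p = 0.0423) and 2.25 ± 0.73 for miR-183-5p (adjusted p = 0.0405). Neither of these 2 culture differences was called under size factors (adjusted p of 0.0978 and 0.0903) or library totals (0.251 and 0.161).

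miR-132-3p, known from CREB-driven transcription, stood at 0, 110, 0 and 3.42 CPM in lung ILC2, 0, 480, 465 and 303 in IL-33 ILC2 and 0, 385, 384 and 573 in cultured ILC2. In T cells it stood at 27, 371, 162 and 271 CPM at rest, 387, 378 and 471 in OVA-lung Th2 and 59, 665.2, 271 and 237 in cultured Th2. Within ILC2 libraries 2 to 4 stood higher than at rest and library 1 held no count in any ILC2 group, while OVA-lung Th2 stood just above the highest CD4 T cell library. The main effect was 3.17 ± 1.01 log2 (adjusted p = 0.0369), no single group was called, and the removal of any 1 of 10 libraries, among them each of the CD4 T cell libraries, ended the call (2.18 to 3.30 log2 in those fits). Its neighbour miR-212-3p, with the same seed, changed by 2.35 ± 1.28 log2 (adjusted p = 0.260).

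The 6 remaining core rises with counts in every group were smaller. miR-17-5p, of the miR-17-92 cluster that is known to promote lymphocyte expansion, rose by 1.55 ± 0.39 log2 (adjusted p = 0.00918). miR-22-3p rose by 1.55 ± 0.41, miR-98-5p by 1.60 ± 0.42 and miR-7a-5p by 1.66 ± 0.44 (adjusted p = 0.0108 for each). miR-296-3p rose by 2.19 ± 0.66 (adjusted p = 0.0261) and miR-301a-3p by 2.44 ± 0.76 (adjusted p = 0.0328). Library totals called none of these 6, with changes of 0.92 log2 (miR-22-3p) to 1.84 log2 (miR-301a-3p) on that scale. miR-22-3p stood at 6840, 5190, 2140 and 2380 CPM in lung ILC2, 3910, 8440, 3130 and 1400 in IL-33 ILC2 and 7980, 20000, 10600 and 2950 in cultured ILC2. In T cells it went from 1010, 1330, 894 and 992 CPM to 8640, 7210 and 1390 in OVA-lung Th2 and 1020, 5150, 4000 and 292 in cultured Th2. OVA-lung Th2 lay above all CD4 T cell libraries, and the other groups overlapped with theirs. miR-17-5p, from chr14:115043684-115043706 in an exon of Mir17hg, shows how far the count tables differ. It stood at 5640, 1170, 245 and 120 CPM in lung ILC2 and at 1770, 3400, 1240 and 180 in IL-33 ILC2, at 7590, 4060, 1640 and 299.1 in CD4 T cells and at 28600, 10900, 4650 and 351 in cultured Th2. Library 4 held the lowest value in each of these 4 groups, and the ranges overlapped; the fit compares libraries within a table. Without CD4 T cell library 4 or cultured Th2 library 1 the call of miR-17-5p was lost (adjusted p of 0.0541 and 0.0788). That of miR-7a-5p was lost without CD4 T cell library 1, OVA-lung Th2 library 3 or cultured Th2 library 1 (1.22 to 1.46 log2). That of miR-22-3p was lost without any 1 of 6 libraries (1.09 to 1.39 log2), which were lung ILC2 2, cultured ILC2 2, CD4 T cell 1 and 2, OVA-lung Th2 1 and cultured Th2 2. miR-296-3p and miR-301a-3p each lost theirs without any 1 of 11 libraries (1.61 to 2.22 and 1.76 to 2.62 log2).

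**Figure D2:**
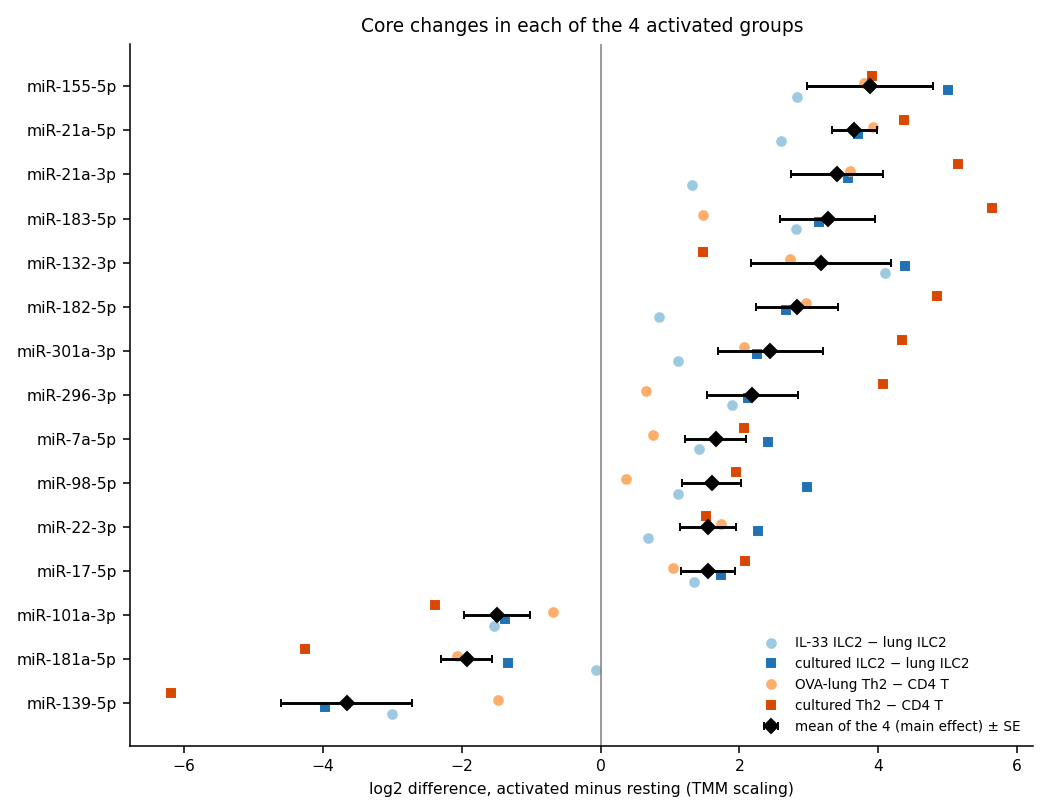
Log2 difference of each activated group from the resting group of its lineage (coloured points) and the main effect with its standard error (black) for the 15 core microRNAs with the named level, without the low-count miR-409-3p. miR-21a-5p has all 4 points between 2.60 and 4.37, and cultured Th2 is often the largest change, as for miR-139-5p and miR-183-5p.

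Among the microRNAs that fell was miR-139-5p. It lies within Pde2a, outside annotated exons, at chr7:101475382-101475403 on the plus strand. Its CPM was 153, 91.3, 700 and 51.3 in lung ILC2, 0, 133.8, 2.12 and 9.45 in IL-33 ILC2 and 45.5, 19.2, 0 and 0 in cultured ILC2. In CD4 T cells it was 983, 990, 876 and 155.2, in OVA-lung Th2 413, 981 and 188 and in cultured Th2 15.6, 48.7, 0 and 0. All cultured libraries lay below all resting libraries of their lineage, and IL-33 ILC2 and OVA-lung Th2 overlapped with theirs. The main effect was -3.66 ± 0.94 log2 (adjusted p = 0.0102), called by itself in cultured Th2 (-6.18 ± 1.71, adjusted p = 0.0158).

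miR-181a-5p, known to set the sensitivity of T cell receptor signalling, fell by 1.93 log2 (SE 0.36, adjusted p = 0.000505). It went from 947, 4820, 4140 and 1580 CPM in lung ILC2 to 553, 3960, 1560 and 850 in IL-33 ILC2 and 145.1, 936, 968 and 238 in cultured ILC2. It went from 8020, 31900, 27500 and 15100 CPM in CD4 T cells to 2910, 14900 and 4780 in OVA-lung Th2 and 1070, 584, 670 and 65 in cultured Th2. IL-33 ILC2 and cultured ILC2 overlapped with lung ILC2, and OVA-lung Th2 with CD4 T cells, while cultured Th2 lay below all CD4 T cells. The change in IL-33 ILC2 was -0.07 ± 0.59 log2 under TMM and -0.66 under size factors, so that its place in the core rests on a difference close to 0. It turned positive there without IL-33 ILC2 library 1 and without OVA-lung Th2 library 2, while the main effect stayed called (-1.93 and -1.86). In activated cells miR-181a-5p was lower in culture than in vivo by -1.72 ± 0.44 (adjusted p = 0.0149). The seed relatives miR-181b-5p (-0.83 ± 0.61), miR-181c-5p (-0.71 ± 0.61) and miR-181d-5p (0.16 ± 0.65) were not called.

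miR-101a-3p, a microRNA known to act on the Polycomb gene Ezh2, fell by 1.496 log2 (SE 0.48, adjusted p = 0.0369). Its level was highest in library 4 of all 5 groups that have one, at 34800 CPM for lung ILC2, 5680 for IL-33 ILC2, 2160 for cultured ILC2, 16800 for CD4 T cells and 435 for cultured Th2. The other libraries of these groups held at most 1840 CPM. The removal of any 1 of 9 libraries ended its call (-1.34 to -1.59 log2). miR-1843a-3p fell by 3.24 log2 (SE 0.97, adjusted p = 0.0246; lost without any 1 of 4 libraries) at a low level, 62.3 to 198 CPM in lung ILC2 against 0 to 64.1 in IL-33 ILC2, and lies in an exon of the small Cajal body RNA Scarna3b within Dcaf5.

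The remaining 6 core members had few counts and are given as counts without a fold. miR-409-3p had counts of 0, 9, 0 and 0 in lung ILC2, 11 to 790 in cultured ILC2, and 0 in every CD4 T cell library against 0, 15 and 0 in OVA-lung Th2. It had 0, 4, 0 and 0 in IL-33 ILC2 and 2, 0, 0 and 7 in cultured Th2. miR-411-5p had 0, 30, 0 and 0 in lung ILC2 and 39, 400, 84 and 46 in cultured ILC2, with 8, 0, 0 and 0 in IL-33 ILC2, 0 in every CD4 T cell library and 1, 13, 0 and 0 in cultured Th2. Outside cultured ILC2 the shared direction of both thus rests on few counts. Both belong to the large imprinted cluster of Dlk1-Dio3 on chromosome 12, and in OVA-lung Th2 their counts came from library 2 alone (15 and 171). miR-1983 was at 0 in all lung ILC2 libraries and had 26, 715, 18 and 8 counts in cultured ILC2 and 2749, 801, 98 and 38 in cultured Th2, and its call was lost without IL-33 ILC2 library 2. miR-8114 had 3 counts in 1 of the 8 resting libraries, and miR-669d-5p and miR-466h-5p, of the repeated Sfmbt2 cluster whose copies share reads, had 0 counts in all but 3 and 6 of the 15 activated libraries. miR-409-3p, miR-411-5p, miR-1983 and miR-8114 each had 0 counts in 7 of the 8 resting libraries. They passed the count filter through activated libraries and could hardly fall. Their place among the 16 core rises is thus no evidence of direction.

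Members of a seed group were not all called in 1 direction. Of the 9 tested microRNAs with the let-7 seed, miR-98-5p rose, let-7b-5p (-1.22 ± 0.34), let-7c-5p (-1.14 ± 0.29) and let-7g-5p (-0.90 ± 0.30) fell, and let-7a, let-7d, let-7e, let-7f and let-7i were not called (-0.17 to 0.50 log2). let-7f-5p, a copy of which starts 876 bases from miR-98 on the X chromosome, where miR-98 lies within Huwe1, had a difference of -0.08 ± 0.27. Its other copy is on chromosome 13, and reads of both copies cannot be told apart. let-7 reads of the near-identical members could have been split between them by the counting, which makes single members uncertain. Among microRNAs with the seed of miR-17, miR-106a-5p, miR-106b-5p, miR-20a-5p, miR-20b-5p and miR-93-5p had changes of 0.22 to 1.07 log2 and none was called. The removal of any 1 of 11 libraries took miR-98-5p out of the core. In 10 of these the call was lost (1.26 to 1.51 log2) and without cultured Th2 library 1 the OVA-lung Th2 difference turned negative.

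**Figure D3:**
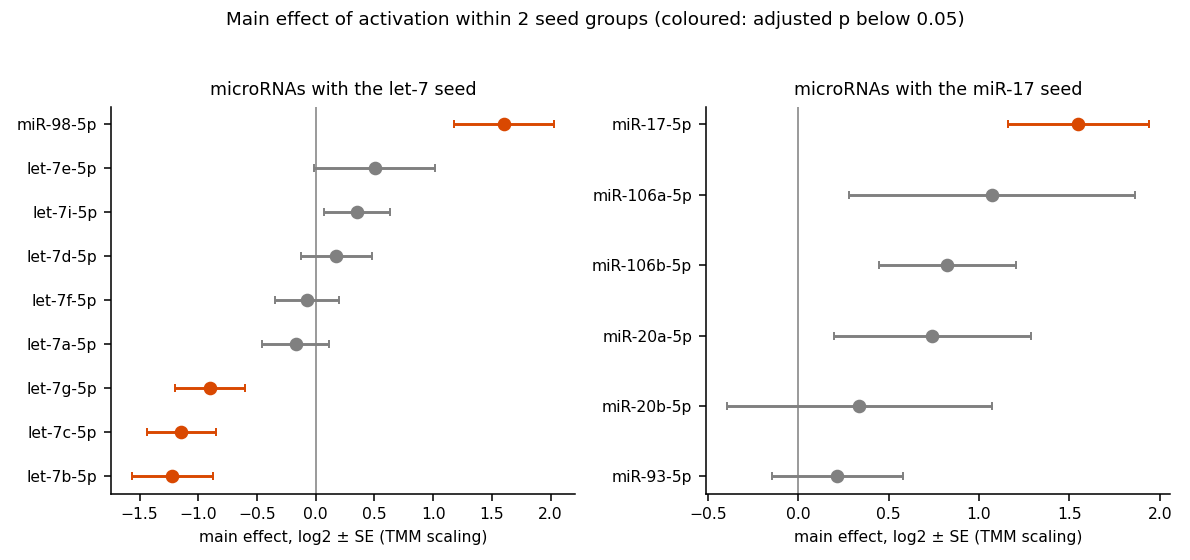
Main effect of activation in log2 with standard errors for the 9 tested microRNAs with the seed of let-7 and the 6 with the seed of miR-17, coloured where the adjusted p was below 0.05. miR-98-5p (1.60) and let-7b-5p (-1.22) stand at opposite ends of the first group, and miR-17-5p is the single call of the second.

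Gene lists were read by their counts beside the 22 rises and 14 falls among all 384 and the median of 0.29. Of 28 entries known to rise in activated lymphocytes 24 were tested, 9 were called upward and 0 downward, with a median of 2.30 log2. miR-21a, miR-155, miR-182, miR-183, miR-132 and miR-22 supplied the 7 core members, miR-146a-5p and miR-210-3p the other 2 calls, and miR-221-3p (0.33) and miR-146b-5p (0.86) were among those not called. The list was chosen with results of these data known and is no independent evidence of its direction. Among T cells it took 2.86 to 10.5% of counts at rest, 35.9 to 55.5% in OVA-lung Th2 and 36.4 to 85.1% after culture. Among ILC2 it took 6.01 to 13% at rest, 11.8 to 47.9% after IL-33 and 13.8 to 66.1% after culture. miR-21a-5p alone held 2.16 to 9.26% in CD4 T cells, 31.3 to 52.8% in OVA-lung Th2 and 29.4 to 82.2% in cultured Th2. It thus made up most of the list's share in activated T cells. In lung, IL-33 and cultured ILC2 it held 1.69 to 10.7%, 1.88 to 45.6% and 5.56 to 62.2%. The list's share is therefore no measure of its other entries.

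Of 22 entries of the resting lymphocyte list 16 were tested, 0 rose and 5 fell (median -1.12), which were both arms of miR-150, miR-139-5p, miR-140-3p and miR-101a-3p. miR-342-3p (-1.13) and miR-26a-5p (-0.81) were not called. Its share of T cell counts was 6.85 to 17.7% at rest, 3.48 to 7.36% in OVA-lung Th2 and 0.887 to 1.70% after culture. Its share of ILC2 counts was 3.65 to 11.4% at rest, 2.34 to 4.76% after IL-33 and 0.492 to 2.19% after culture. The miR-17-92 cluster had 1 rise among 12 tested (median 0.65) and its paralogs none of 11 (median 0.28, 1 with an unadjusted p below 0.05 and 0 by DESeq2). The miR-23/27/24 clusters had 3 rises of 11 (median 1.29) and no core member. Of the 3, miR-24-2-5p lost its call without any 1 of 14 libraries and miR-27a-3p without any 1 of 9, and library totals called neither (adjusted p of 0.0598 and 0.248). The let-7 list had 1 rise and 3 falls of 17 (median 0.18), and the miR-181 list 1 fall of 6 (median -0.96). The miR-15/16, miR-29 and miR-30 families had no call among 7, 5 and 11 tested, with 1, 1 and 0 at an unadjusted p below 0.05 and 1 call each by DESeq2. The Dlk1-Dio3 locus had 3 rises of 17 tested out of 79 entries, where DESeq2 called 1. These 3 calls were lost without any 1 of 4 (miR-409-3p), 6 (miR-411-5p) and 13 (miR-379-5p) libraries. The Sfmbt2 cluster had 3 falls of 36 out of 111 (median -0.80). Entries that passed the count filter in 1 group only had to differ, which limits what the counts of the last 2 lists show.

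The other 14 called microRNAs, 6 higher and 8 lower, were not shared in direction by all 4 groups. Under TMM IL-33 ILC2 had the opposite sign for 10 of them. Signs are read against 0, while the median of all 384 in that contrast was 0.57 log2 under TMM. It was -0.01 under size factors and -0.20 under library totals. In cultured ILC2, OVA-lung Th2 and cultured Th2 the TMM medians were 0.73, -0.58 and 0.38. The sign of a small change thus depends on the scaling. miR-150-5p, known to hold down Myb in resting lymphocytes, fell by 2.38 log2 on average (SE 0.32, adjusted p = 5.11e-07). Its CPM was 510, 4250, 2190 and 441 in lung ILC2, 242, 7800, 1050 and 300 in IL-33 ILC2 and 14.1, 489, 500 and 63.7 in cultured ILC2. It was 5880, 114000, 76900 and 20300 in CD4 T cells, 1610, 42400 and 44300 in OVA-lung Th2 and 114, 996, 610 and 68.8 in cultured Th2. Cultured Th2 lay below every CD4 T cell library, and IL-33 ILC2, cultured ILC2 and OVA-lung Th2 overlapped with their resting group. The difference from rest was 0.31 ± 0.52 with IL-33 and -2.16 ± 0.55 with culture in ILC2, and -1.57 ± 0.60 for OVA-lung Th2 and -6.09 ± 0.64 for cultured Th2. The first is -0.15 under size factors and -0.34 under library totals, and miR-150-5p counts as core under both. let-7c-5p, miR-140-3p and miR-378a-3p also have an IL-33 ILC2 difference that is above 0 under TMM (0.47, 0.23 and 0.27) and below 0 under size factors (-0.14, -0.41 and -0.31).

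miR-146a-5p, an NF-kB-induced brake on Traf6 and Irak1, was the other microRNA called in IL-33 ILC2, and its direction parted between the activated T cell groups. Its CPM was 11600, 9380, 8590 and 2530 in lung ILC2, 66700, 23300, 10100 and 3670 in IL-33 ILC2 and 46900, 54700, 34500 and 12300 in cultured ILC2. It was 5410, 2860, 1210 and 1430 in CD4 T cells, 16000, 20000 and 12700 in OVA-lung Th2 and 974, 1320, 797 and 46.2 in cultured Th2. OVA-lung Th2 lay above all CD4 T cells and every cultured Th2 library lay below all but CD4 T cell library 3. The differences were 2.17 ± 0.53, 3.32 ± 0.55, 2.00 ± 0.57 and -1.57 ± 0.52 log2, each called under TMM (adjusted p of 0.0386, 5.98e-05, 0.0310 and 0.0425). Under size factors the calls in cultured ILC2 and OVA-lung Th2 remained (adjusted p of 0.00167 and 0.00139), and those in IL-33 ILC2 (0.395) and cultured Th2 (0.0865) did not. The main effect was 1.48 ± 0.34 (adjusted p = 0.00333), and 0.87 under library totals (adjusted p = 0.0828).

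miR-210-3p, known as a hypoxia-induced microRNA, stood at 18700, 15000, 5640 and 333 CPM in cultured Th2 against 540, 75.6, 211.6 and 28.9 in CD4 T cells and 374, 334 and 11.8 in OVA-lung Th2. The difference in OVA-lung Th2 was -0.60 ± 0.87 log2 and that in cultured Th2 5.99 ± 0.92. Among activated cells it was higher in culture than in vivo by 4.04 ± 0.65 (adjusted p = 3.13e-05), a call kept under size factors and library totals. miR-27a-3p rose in OVA-lung Th2 (2.56 ± 0.66) and cultured Th2 (2.05 ± 0.61) and had differences of 1.17 ± 0.62 and -0.40 ± 0.58 in IL-33 ILC2 and cultured ILC2. Under library totals the call in cultured Th2 was lost (1.18, adjusted p = 0.185).

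**Figure D4:**
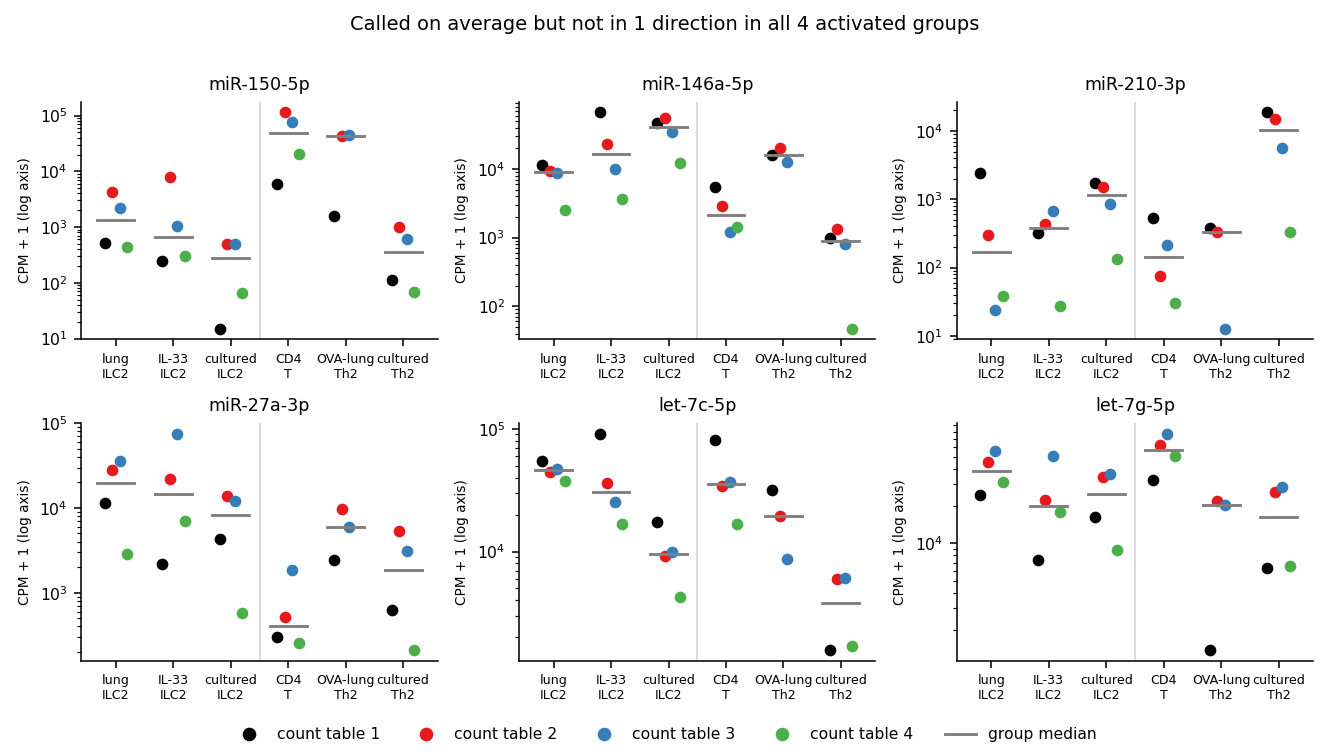
CPM plus 1 on a log axis for 6 microRNAs called in the main effect whose direction was not shared by all 4 activated groups, by library and count table, with group medians as grey lines. The median of miR-146a-5p is above rest in both ILC2 groups and in OVA-lung Th2, and its values reach down to 46.2 CPM in cultured Th2, and miR-210-3p reaches 18700 CPM there.

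Whether the change on activation differed between ILC2 and T cells was tested directly. Of 384 microRNAs 13 were called (3.39%), 11 with a more positive change in ILC2 (2.86%) and 2 with a more negative one (0.521%). None of the 22 core microRNAs was among them, 2 had an unadjusted p below 0.05 and DESeq2 called 3. The core rule asks for 1 sign in all 4 contrasts of the same fit, which selects against a lineage difference. At a share of 3.39% few calls would fall among 22 in any case. The absence of calls thus does not show that core changes were equal in the lineages. The split turned to 1 and 8 under size factors and 1 and 2 under library totals, with medians of all differences of 0.76, -0.35 and 0.21 log2. For miR-21a-5p the change in ILC2 minus that in T cells was -0.997 ± 0.54 (adjusted p = 0.347), and -2.17 under size factors, where it was called (adjusted p = 0.00366). For miR-155-5p it was 0.06 ± 1.39. miR-126a-3p, the endothelial marker that fell in cultured ILC2 (-4.04) and rose in both activated T cell groups (5.74 and 4.25), differed by -7.52 ± 1.32 (adjusted p = 0.00039) and stayed called under each scaling. The removal of single libraries moved the 13 calls to between 1 and 29. With lung ILC2 library 3 or 4 left out there were 2 and 1, with CD4 T cell library 1, OVA-lung Th2 library 3 or cultured Th2 library 4 left out 3 each, and with cultured Th2 library 1 left out there were 29.

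Activated cells in culture were also set against activated cells in vivo, with 41 calls (10.7%), 27 higher (7.03%) and 14 lower (3.65%) in culture. The split was 16 and 16 under size factors and 13 and 29 under library totals. Of the core, 5 were called, miR-182-5p, miR-183-5p, miR-98-5p and miR-1983 higher and miR-181a-5p lower. miR-150-5p (-3.50 ± 0.41) and miR-150-3p (-4.42 ± 0.75) were lower in culture, and miR-34a-5p, a p53 target, was higher (6.19 ± 1.24, adjusted p = 0.00104). Leaving out OVA-lung Th2 library 2 gave 18 calls, OVA-lung Th2 library 3 gave 26, cultured Th2 library 4 or cultured ILC2 library 3 gave 25 each, and cultured ILC2 library 1 gave 71.

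Of the 22 core microRNAs, 5 kept their place in each of the 23 fits with 1 library left out and in all 3 scalings, and these were miR-21a-5p, miR-21a-3p, miR-182-5p, miR-183-5p and miR-139-5p. By both DESeq2 and limma 12 were core, which include 4 of these 5 and not miR-21a-3p. The main-effect call of miR-21a-3p was kept in all 9 other settings. It thus left the core because a group difference did not keep its sign under DESeq2 or limma, and its shared direction depends on the method. Without the replicate block miR-182-5p, miR-183-5p and miR-139-5p were not core. miR-139-5p also lost its main-effect call with equal weight per library. The last calls inside the threshold were miR-8114 (adjusted p = 0.0427), miR-379-5p (0.0443) and let-7g-5p (0.0459), and the first outside it were miR-221-5p, miR-365-2-5p and miR-541-5p (0.0547 each).

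**Figure D5:**
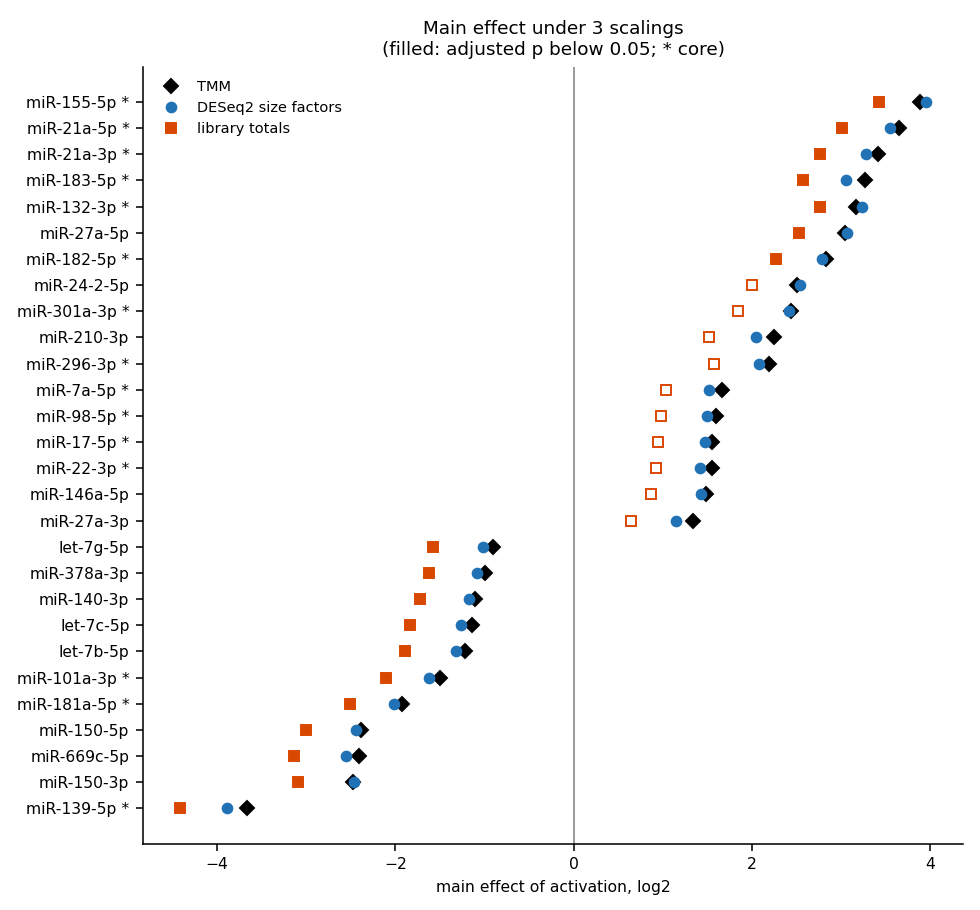
Main effect of activation in log2 under TMM (black), DESeq2 size factors (blue) and library totals (orange) for called microRNAs with a mean of at least 6 log2 CPM, without the low-count miR-409-3p and miR-379-5p, filled where the adjusted p was below 0.05, with core members starred. Library totals shift all values downward and show unfilled symbols for rises of 2 log2 or less on that scale, such as miR-17-5p (0.95), while miR-21a-5p stays above 3.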

How the data were processed

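Mature microRNA abundance was measured by small RNA sequencing in 23 libraries, deposited in 4 count tables that the number in a library's label names. The deposited values are expected counts, 9.98% of those above 0 not whole, and the authors also deposited RPM, of which 99.9% lay within 1 read of the counts. The submitters' processing notes name mm10 and DESeq2; for the aligner and the counter, the sources used here give no name. One empty line was dropped, and 6 columns of the authors' means were not used.

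Counts were rounded and tested with edgeR 4.0.16 (R 4.3.3) after filterByExpr (minimum count 10; 384 kept), with TMM scaling, a robust quasi-likelihood fit over all groups, count table as block and Benjamini-Hochberg adjustment. All adjusted p-values are from this fit unless another is named, and ± is the standard error. Alternatives used DESeq2 1.42.0, limma 3.58.1 on log2(RPM + 1), other scalings, no filter, no block and leaving out each library. CPM values use library totals. The code was tested on simulated data.

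The block is the count table. Over 204 microRNAs, deviations from the group means of same-numbered libraries correlated above 0.1 in 51 of 55 pairs (-0.03 to 0.77, median 0.39; other pairs -0.16), 22 of 23 libraries correlated best with their own number, and the biological coefficient of variation was 1.13 with the block and 1.54 without.

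Named microRNAs were core members with a mean of at least 6 log2 CPM, the lowest p in each list, both arms of miR-21a, miR-146a, miR-155 and miR-150, the most abundant marker of each list, and leading calls that were not shared or that differed by lineage or culture. Other microRNAs in the text (remaining core members, seed relatives and neighbours) were named after their values were seen. The members and lists were chosen with earlier results of these data known.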

Additional observations from a re-analysis of the deposited data

Results flagged for a closer look

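Outliers were sought on log2 CPM under TMM scaling, whereas the values printed here are CPM of the library total. On that log2 scale 1 library of 4 stood apart, by a gap above 0.829 of the group's range, in 9 of the 99 groups of 4 tested. A group with counts in only 1 library passes this rule by construction, as miR-409-3p did in lung ILC2 and IL-33 ILC2. The same holds for both groups of miR-155-3p. The chance rate of about 1 in 20 does not apply to such groups, so the 9 flags measure no excess. miR-409-3p stood at 6.37 CPM in lung ILC2 library 2, 44.6 in IL-33 ILC2 library 2 and 1.76 in cultured Th2 library 4. miR-183-5p at 6640 CPM and miR-296-3p at 2610 CPM were high in cultured Th2 library 4. miR-22-3p was low in cultured ILC2 library 4 (2950 CPM) and CD4 T cell library 3 (894 CPM). miR-155-3p was detected at 4.96 CPM in lung ILC2 library 2 and 7.16 in CD4 T cell library 2, with no counts in the other libraries of those groups.

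The change on activation in ILC2 minus that in T cells passed the interaction test for 6 named microRNAs. It was 2.90 log2 for miR-150-5p (adjusted p = 0.0160), 2.53 for miR-146a-5p (adjusted p = 0.0282), 2.12 for let-7g-5p (adjusted p = 0.0421), 6.29 for miR-669c-5p (adjusted p = 0.0260), 6.14 for miR-467a-5p (adjusted p = 0.0282) and -7.52 for miR-126a-3p (adjusted p = 0.00039). Under DESeq2 size factors miR-150-5p (1.83), miR-146a-5p (1.34), let-7g-5p and miR-467a-5p (4.89) were no longer called, with adjusted p of 0.131, 0.283, 0.488 and 0.0903. Library totals called neither of the first pair (0.0562 and 0.164), nor let-7g-5p (0.196) or miR-467a-5p (0.0562).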

How the results depend on the processing

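Among 2284 values of 72 results under the alternatives, 298 lost a call, 28 gained one and 17 reversed. The other 1941 kept their direction and side of the threshold, where values without an adjusted p from DESeq2 are counted as kept. The causes were not tested. Without the replicate block the main effect had 4 calls (58 at an unadjusted p below 0.05), the core 3 (miR-21a-5p, miR-21a-3p and miR-1983), the lineage difference 1 and the culture difference 17. The IL-33 ILC2, cultured ILC2, OVA-lung Th2 and cultured Th2 contrasts then had 0, 1, 0 and 4, with 22 and 68 at an unadjusted p below 0.05 for the contrasts at 0. Testing 1092 microRNAs with no filter gave 21, 14, 4 and 18 for main, core, lineage and culture and 1, 6, 12 and 21 for the 4 contrasts. DESeq2 gave 69 (41 higher, 28 lower), 43 and 36 (10 higher, 26 lower) for main, core and lineage and 42, 55 and 83 for cultured ILC2, OVA-lung Th2 and cultured Th2. limma gave a core of 36 (8 higher, 28 lower), a main effect of 46 (10 and 36), and 0, 28 and 39 for IL-33 ILC2, cultured ILC2 and OVA-lung Th2, with 37 in the first at an unadjusted p below 0.05. Library totals gave a core of 36, a lineage count of 3 and 1 for IL-33 ILC2, which also had 1 under size factors and 1 without OVA-lung Th2. Equal weight per library gave 15 in the main effect, 14 higher and 1 lower. Falls that lost their call there included both arms of miR-150, let-7b-5p, let-7c-5p, let-7g-5p, miR-140-3p, miR-101a-3p and miR-139-5p. Some rises, such as miR-146a-5p and miR-210-3p, lost theirs too.

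With 1 library left out, the calls ran from 21 to 38 (main), 13 to 25 (core), 1 to 29 (lineage), 18 to 71 (culture), 0 to 3 (IL-33 ILC2), 4 to 24 (cultured ILC2), 11 to 41 (OVA-lung Th2) and 18 to 56 (cultured Th2). Reversals were in uncalled microRNAs apart from the core's own sign rule. miR-92a-1-5p turned from -1.91 to 0.63 with equal weight per library. miR-451a (0.52) turned to -0.31 with library totals, -0.01 with limma and -0.33 without OVA-lung Th2, and miR-532-5p (0.25) to -0.83 without the block, -0.44 with totals and -0.51 with limma. With single libraries left out they ran from -0.07 to 1.80 and from -0.12 to 0.40, miR-15a-3p from -1.28 to 4.68 and miR-143-3p from -1.16 to 0.19. Total counts as low as 84911 limit what low-count microRNAs can show.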
